A study of Homo sapiens with 28 samples.

Results

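The genes described here encode 10 enzymes of serine, asparagine, proline and cysteine metabolism that are known targets of the transcription factor ATF4. They were chosen by gene symbol (ASNS, PHGDH, PSAT1, PSPH, SHMT2, MTHFD2, ALDH18A1, PYCR1, CHAC1 and CTH), and all 10 were found among the 61815 human genes of the table. All 10 passed the filter on low counts in both experiments. The set was chosen with earlier results of these data known, so its counts beside the shares of all genes are a description only. RNA-seq was done on LNCaP, an established human prostate cancer line that responds to androgen, with no genetic change introduced. All cells, controls included, spent 72 h in medium with charcoal-stripped serum, which removes steroids, before treatment. In the 24 h experiment, 3 libraries each came from cells given vehicle (0.1% DMSO), Senexin B at 1 µM, the synthetic androgen R1881 at 0.1 nM, or both agents. In the 72 h experiment, 4 libraries each came from cells given vehicle, SNX631 at 500 nM, R1881 at 1 nM, or both. Senexin B and SNX631 both block the Mediator kinases, CDK19 and its paralog CDK8, which attach to the Mediator complex of transcription. The experiments differed in time, androgen dose and inhibitor at once, so these cannot be told apart and values of the 2 experiments are given side by side without a test. All results come from 1 cell line.

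ATF4 is made when phosphorylation of the translation factor eIF2 slows protein synthesis in general, as happens when amino acids run short or unfolded proteins accumulate. It pairs with C/EBP-family proteins on C/EBP-ATF response elements and switches on genes for amino acid synthesis, amino acid import and tRNA charging. Serine is built from a glycolytic intermediate by PHGDH (phosphoglycerate dehydrogenase), PSAT1 (phosphoserine aminotransferase) and PSPH (phosphoserine phosphatase), in that order. SHMT2 then splits serine into glycine and a folate-bound carbon unit in mitochondria, and MTHFD2 oxidises that unit for purine and thymidylate synthesis. ASNS makes asparagine from aspartate. ALDH18A1 converts glutamate into pyrroline-5-carboxylate, which PYCR1 reduces to proline. CTH (cystathionine gamma-lyase) makes cysteine, and CHAC1 breaks down glutathione.

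Sequence around the transcription start is shown for 4 of the enzymes: ASNS and CHAC1, which hold a match to the core of the C/EBP-ATF response element, and PSAT1 and MTHFD2, which had some of the largest responses described below and hold none. RefSeq promoter windows (GRCh38.p14, 250 bases before to 50 after the start) were matched for 7 of the 10 genes, and none was matched for PSPH, SHMT2 and PYCR1. The core was searched as TGATGNAA on both strands. It was found in the windows of 2 of the 7 genes, and 3.62% of 35116 promoter windows of that length hold it. Capitals mark the core. The ASNS stretch is chr7:97872458-97872487 on the minus strand, with the core at positions -68 to -61 relative to the start and reading along the gene. A second RefSeq start of ASNS, further along the gene, was searched too, and its window held no core. The CHAC1 stretch is chr15:40953251-40953280 on the plus strand, with the core at positions -209 to -202 on the opposite strand, so that its reverse complement is printed. Both stretches lie before the RefSeq start but inside the annotated gene, which begins at chr7:97872542 for ASNS and chr15:40952962 for CHAC1. The PSAT1 stretch, chr9:78296875-78297124 on the plus strand, is the 250 bases before the start. The MTHFD2 stretch, chr2:74198365-74198561 on the plus strand, is the 197 bases of that window that lie before the annotated gene.
ASNS: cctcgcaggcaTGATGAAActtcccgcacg
CHAC1: ctcccctgccgTTGCATCActcctgccagg
PSAT1: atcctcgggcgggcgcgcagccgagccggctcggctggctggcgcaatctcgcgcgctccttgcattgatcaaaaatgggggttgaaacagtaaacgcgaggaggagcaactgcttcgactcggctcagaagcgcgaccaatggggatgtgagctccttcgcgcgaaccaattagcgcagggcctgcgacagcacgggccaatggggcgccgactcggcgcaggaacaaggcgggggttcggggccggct
MTHFD2: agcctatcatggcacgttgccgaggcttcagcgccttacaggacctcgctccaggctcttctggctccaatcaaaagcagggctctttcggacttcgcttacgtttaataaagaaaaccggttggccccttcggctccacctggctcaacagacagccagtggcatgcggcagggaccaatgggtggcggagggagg
The androgen response element was searched as the half-sites AGAACA and TGTTCT with any 3 bases between them. It was found in no window of the 7 genes and in 1 of the 35116 windows. A match or its absence describes the letters of these windows only.

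Library totals ran from 9846595 to 15248512 counts except vehicle replicate 3 of the 24 h experiment, with 33809419. The androgen label was checked on KLK3, which encodes prostate-specific antigen: it lay between 1.13 and 1.71 CPM (counts scaled to a common library total) in the 24 h vehicle libraries and between 107 and 115 CPM with R1881, and between 1.22 and 1.60 CPM and between 131 and 148 CPM at 72 h. Luminal prostate genes were present in every library, with KRT8 at 457 CPM or more and KRT18 at 278 CPM or more. The basal keratin KRT5 and the neuroendocrine factor INSM1 were at 0 counts throughout. Of the markers of other cell types, COL1A1 alone exceeded the highest CD68 value of 1.38 CPM, at 7.36 to 31.4 CPM, and the other fibroblast markers COL1A2, DCN and LUM stayed at or below 0.992 CPM. COL1A1 made up most of the summed level of the 4 fibroblast markers. That sum was lower with Senexin B, at 10.8 to 12.6 CPM against 22.5 to 25.2 CPM in vehicle. It was lower with SNX631, at 18.8 to 22.6 CPM against 28.5 to 31.8 CPM in vehicle. It was also lower with R1881 alone, at 14.052 to 14.998 CPM at 24 h and 17.3 to 24.4 CPM at 72 h, and lowest with both agents, at 7.36 to 8.81 CPM and 10.461 to 13.001 CPM. The summed level of the 8 luminal genes was lower with the inhibitors too. At 24 h it was 3929 to 3969 CPM in vehicle and 3424 to 3483 CPM with Senexin B. At 72 h it was 3424 to 3439 CPM in vehicle and 3070 to 3146 CPM with SNX631. With R1881 alone it was 3535 to 3575 CPM at 24 h and 3691 to 3752 CPM at 72 h. The part of either sum in the results below was not tested.

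The 10 enzymes spanned a wide range of expression (the plot of the 10 enzymes in every library). Levels of different genes were compared as CPM per kilobase of the longest principal GENCODE transcript. In vehicle at 24 h, PHGDH was highest at 105 ± 0.971 CPM per kb (SD, n = 3). SHMT2 at 92.4 ± 1.53 and PYCR1 at 91.6 ± 2.34 CPM per kb followed and did not differ beyond their spread. PSAT1 (74.8 ± 1.24), ALDH18A1 (52.9 ± 1.04), PSPH (22.3 ± 0.847), MTHFD2 (19.3 ± 0.321) and ASNS (17.5 ± 0.304) came next on that scale. CTH at 3.43 ± 0.159 and CHAC1 at 1.36 ± 0.0184 CPM per kb were lowest. With R1881 alone PYCR1 was highest, at 133 ± 2.94 CPM per kb at 24 h (n = 3) and 133 ± 2.77 at 72 h (n = 4). With R1881 and SNX631 at 72 h it was highest too, at 165 ± 6.06 CPM per kb (SD, n = 4). PHGDH (152 ± 3.00) and SHMT2 (148 ± 4.09) followed and did not differ beyond their spread. MTHFD2 then stood at 53.5 ± 1.44 CPM per kb, above PSPH at 30.0 ± 0.869 and ASNS at 27.6 ± 0.995. It was also above them in 72 h vehicle, at 25.6 ± 0.414 against 21.6 ± 0.605 and 21.5 ± 0.681 CPM per kb.

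How the reads were counted bears on 3 of the enzymes. ASNS lies at chr7:97852118-97872542 (GRCh38, minus strand) and overlaps another entry on the same strand, ENSG00000284707. The count of that entry was 0.950 to 1.00 times that of ASNS in every library. Counts with a fraction occurred for ASNS in 15 of 28 libraries, so the level of ASNS may be understated where reads were shared between the entries. Adding both entries together left every ASNS fold change with its direction, and moved R1881 against vehicle at 24 h to an FDR of 0.00682, past the 0.01 limit. For R1881 against vehicle at 72 h the FDR went from 0.0355 to 0.01. The counting rule is not given, so the sum may hold the same reads more than once and its FDR is a description only. PSPH had fractions in 11 libraries and has a copy, PSPHP1, with 93 to 344 counts a library, so its level is uncertain to that extent. CHAC1 rested on 21 to 95 counts a library, against 436 or more for ASNS and 1848 or more for PYCR1, and its values are the least precise of the set.

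**Figure D1:**
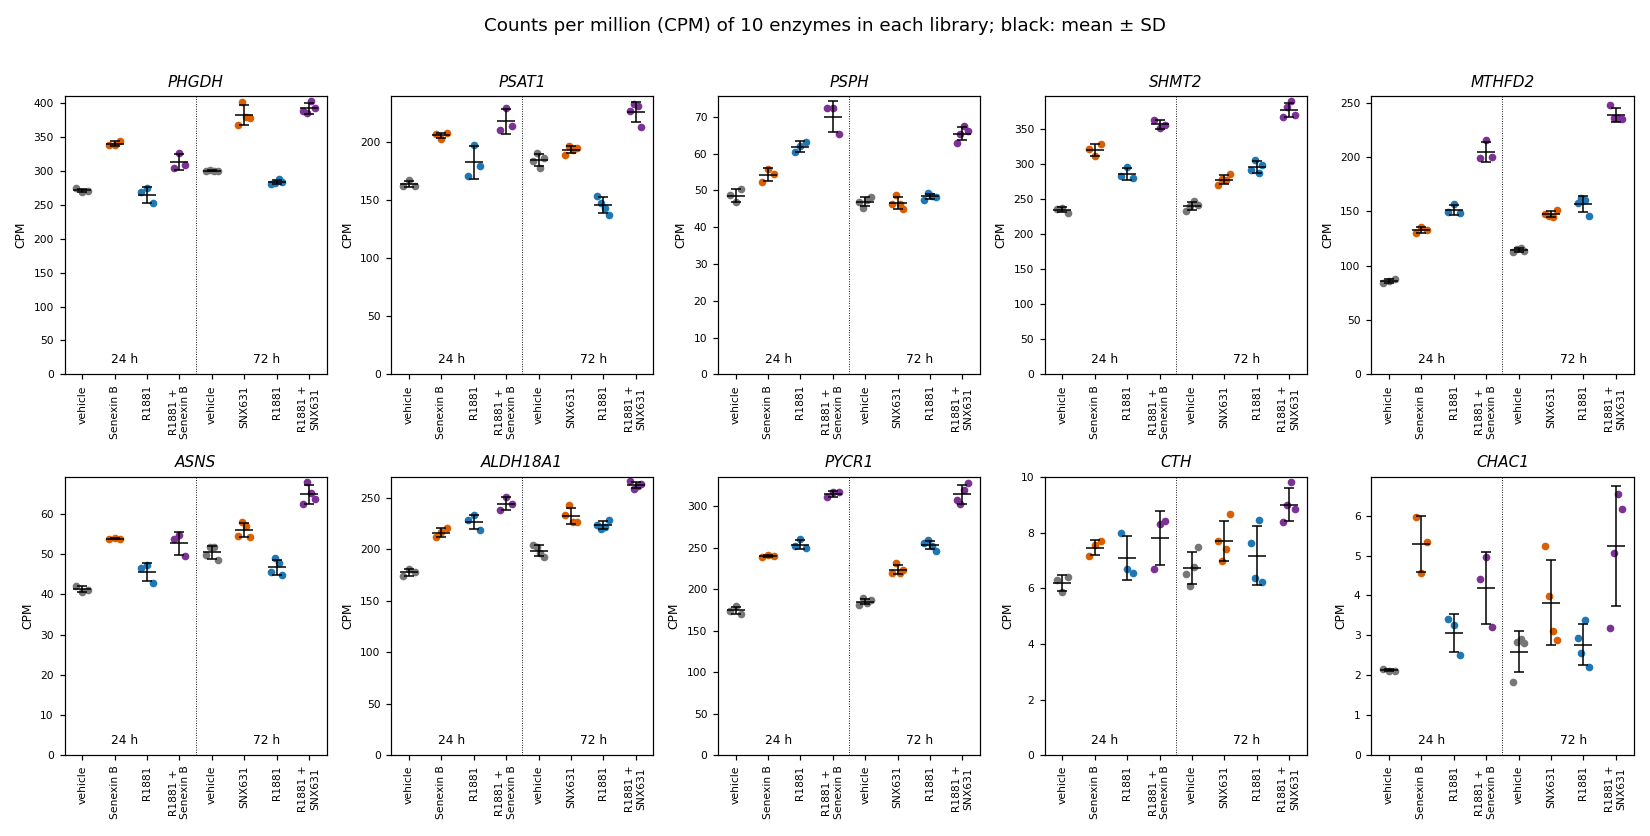
CPM (vertical axes, from 0) of the 10 enzyme genes in each of 28 libraries, with groups of the 24 h experiment left of the dotted line and of the 72 h experiment right of it. Points are libraries and black bars are the mean ± SD. In all 10 panels the 3 Senexin B libraries lie above the 3 vehicle libraries, and PSAT1 at 72 h is lowest with R1881 alone (137 to 154 CPM).

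The question of what Mediator kinase inhibition does to these genes without androgen was addressed first by Senexin B against vehicle at 24 h. Of the 10 enzymes, 8 rose (edgeR quasi-likelihood test, FDR under 0.01 over all genes) and none fell, while 13.5% of the 15948 genes tested rose and 11.7% fell. The median log2 fold change of the 10 was 0.36, against 0.00047 over all genes tested. Most of the rises were small: 2 enzymes, CHAC1 and MTHFD2, also passed a fold of 1.5 and are called below, where 3.79% of all genes were called in either direction. In each of the 10 enzymes every Senexin B library was above every vehicle library, a pattern that 23.5% of all genes tested showed.

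CHAC1, the glutathione-degrading enzyme, had the largest fold. It measured 2.16, 2.12 and 2.10 CPM in vehicle and 5.98, 4.56 and 5.33 CPM with Senexin B. The lowest treated library was over the highest control, and the fold was 2.50 (log2 1.32 ± 0.17 SE, FDR = 2.93e-07). MTHFD2, the mitochondrial folate enzyme, measured 84.4, 85.8 and 87.3 CPM in vehicle and 130.3, 136 and 133 CPM with Senexin B. The groups were far apart relative to their spread, with a fold of 1.54 (log2 0.62 ± 0.039, FDR = 6.37e-14).

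The other enzymes of the serine branch rose less. PHGDH went from 274, 269 and 271 CPM to 338, 338 and 344 CPM, a fold of 1.25 (FDR = 4.7e-09). PSAT1 went from 162, 167 and 162 CPM to 206, 203 and 207 CPM, a fold of 1.26 (FDR = 1.32e-07). The folds of these 2 enzymes were close, and the difference between genes was not tested. PSPH, the last enzyme of the pathway, had a fold of 1.11 with an FDR of 0.0196 and did not pass. SHMT2 rose by a fold of 1.37 (FDR = 1.42e-12).

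The asparagine and proline enzymes rose with them. ASNS measured 42.1, 40.6 and 41.2 CPM in vehicle and 53.8, 54.2 and 53.8 CPM with Senexin B, a fold of 1.31 (FDR = 2.44e-07). PYCR1, at the end of the proline pathway, measured 173, 179 and 171 CPM and then 239, 241 and 239.8 CPM, a fold of 1.38 (FDR = 7.68e-13). ALDH18A1, at its start, had a fold of 1.22 (FDR = 8.25e-08). CTH had a log2 fold change of 0.26 ± 0.12 and an FDR of 0.0821, so it did not pass although its 3 treated libraries (7.16 to 7.70 CPM) lay above the controls (5.86 to 6.40 CPM).

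In cells that also received R1881, Senexin B was compared with R1881 alone at 24 h. Of the 10 enzymes, 7 rose and none fell, against 12.7% and 9.99% of all genes tested. No enzyme was called by edgeR or by DESeq2, 9 had an unadjusted p under 0.05, and 3.12% of all genes were called. The median log2 fold change was 0.25, against 0.010 over all genes. MTHFD2 had the largest fold of those that rose, from 149, 157 and 149 CPM to 199, 215 and 199 CPM, a fold of 1.35 (FDR = 1.24e-10). SHMT2 (fold 1.25) and PYCR1 (fold 1.24) followed. CHAC1 measured 3.40, 3.26 and 2.51 CPM with R1881 and 4.40, 4.97 and 3.20 CPM with both agents. The groups overlapped for CHAC1, and its log2 fold change of 0.44 ± 0.19 did not pass (FDR = 0.0786).

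At 72 h without androgen, SNX631 against vehicle raised 6 of the 10 enzymes and lowered none, where 14.4% of the 16074 genes tested rose and 12.5% fell. No enzyme was called by edgeR or DESeq2, 8 had an unadjusted p under 0.05, and 4.77% of all genes were called. The median log2 fold change was 0.22, against 0.0019 over all genes. MTHFD2 went from 112, 115, 116 and 113 CPM to 148, 146, 145 and 151 CPM, a fold of 1.29 (FDR = 8.37e-12). PHGDH went from 299.9, 302, 299.6 and 300.0 CPM to 368, 402, 379.9 and 379 CPM, a fold of 1.27 (FDR = 3.29e-14). In both genes all treated libraries were above all controls. PYCR1 (fold 1.21), ALDH18A1 (1.17), SHMT2 (1.16) and ASNS (1.11) rose less.

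The later serine enzymes did not move with PHGDH in that comparison. PSAT1 measured 183, 190.0, 177 and 186 CPM in vehicle and 189, 196, 193 and 195 CPM with SNX631, with overlapping groups (log2 0.07 ± 0.031, FDR = 0.0827). PSPH lay between 45.2 and 48.3 CPM in vehicle and between 45.0 and 48.7 CPM with SNX631 (FDR = 0.891). CHAC1 had a log2 fold change of 0.54 ± 0.21 and an FDR of 0.0390, from 1.83 to 2.92 CPM in vehicle and 2.90 to 5.25 CPM with SNX631. CTH did not pass either (FDR = 0.172).

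With R1881 present at 72 h, SNX631 raised all 10 enzymes against R1881 alone, where 17.8% of all genes tested rose and 15.4% fell. The median log2 fold change was 0.45, against -0.0052 over all genes. PSAT1, MTHFD2 and CHAC1 were called, and 4.12% of all genes were called. All treated libraries were above all R1881 libraries for 8 of the enzymes, a pattern that 19.9% of all genes showed, and the exceptions were CHAC1 and CTH.

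PSAT1 measured 154, 147, 143 and 137 CPM with R1881 and 226, 232, 231 and 213 CPM with R1881 and SNX631. The fold was 1.55 (log2 0.64 ± 0.032, FDR = 1.15e-18). MTHFD2 measured 157, 162, 160.0 and 146 CPM and then 248, 235, 236 and 234 CPM, a fold of 1.52 (FDR = 4.48e-19). Its call sat at the edge of the fold limit: without R1881 replicate 4 the log2 fold change was 0.58 and it was not called. CHAC1 measured 2.93, 2.57, 3.39 and 2.19 CPM and then 3.19, 5.07, 6.53 and 6.15 CPM. Its replicate 1 with both agents lay within the range of R1881 alone, and the fold was 1.91 (log2 0.94 ± 0.20, FDR = 1.21e-04).

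Both other serine enzymes and ASNS rose in the same comparison. PHGDH went from 280.5, 283, 289 and 283 CPM to 388, 386, 403 and 392 CPM, a fold of 1.38 (FDR = 8.45e-18). PSPH went from 47.5, 49.2, 48.6 and 48.1 CPM to 62.9, 65.2, 67.4 and 66.2 CPM, a fold of 1.35 (FDR = 1.42e-11). ASNS went from 45.6, 49.0, 47.8 and 44.9 CPM to 62.6, 68.0, 65.4 and 63.7 CPM, a fold of 1.39 (FDR = 9.08e-12). The groups did not overlap in any of these genes. SHMT2 (fold 1.27), PYCR1 (1.24) and ALDH18A1 (1.17) rose by less, and CTH, with 6.23 to 8.47 CPM against 8.38 to 9.83 CPM, had a fold of 1.26 (FDR = 0.00748).

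**Figure D2:**
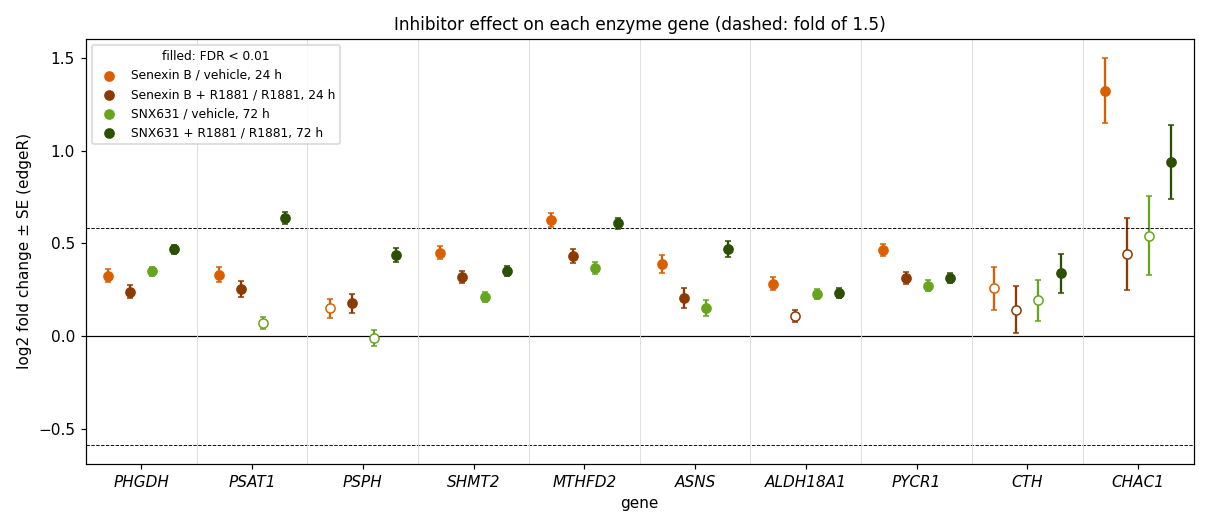
Log2 fold change (vertical axis; points, with bars of ± 1 SE from edgeR) of each enzyme gene with an inhibitor against the matching cells without it, in 4 comparisons shown by colour. Filled points have an FDR under 0.01 and dashed lines mark a fold of 1.5. Values are above 0 in all but PSPH with SNX631 alone (-0.01), and all 10 points are filled for SNX631 with R1881.

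The androgen comparisons asked how R1881 alone set these genes, and they share their vehicle libraries with the inhibitor comparisons above. At 24 h, R1881 against vehicle raised 6 of the 10 enzymes and lowered none, where 26.3% of all genes tested rose and 22.1% fell. MTHFD2 alone was called, among 19% of all genes. The median log2 fold change was 0.31, against -0.016 over all genes. MTHFD2 went from 84.4, 85.8 and 87.3 CPM to 149, 157 and 149 CPM, a fold of 1.76 (log2 0.82 ± 0.040, FDR = 4.47e-18). PYCR1 went from 173, 179 and 171 CPM to 252, 259.9 and 249 CPM, a fold of 1.46 (FDR = 1.4e-15), just under the fold limit. The groups were well apart in both. ALDH18A1 (fold 1.27), PSPH (1.26), SHMT2 (1.22) and PSAT1 (1.11) also rose. PHGDH, at 252 to 275 CPM with R1881, did not pass (log2 -0.03 ± 0.035, FDR = 0.408).

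At 72 h R1881 was compared with vehicle in the same way. It raised 4 enzymes (MTHFD2, PYCR1, SHMT2 and ALDH18A1) and lowered 2 (PSAT1 and PHGDH), where 27.6% of all genes tested rose and 24.6% fell. In a set of 10 these counts are not far from the shares of all genes. None was called by edgeR or DESeq2, 7 had an unadjusted p under 0.05, and 19.8% of all genes were called. The median log2 fold change was 0.084, against -0.014 over all genes. PSAT1 fell from 183, 190.0, 177 and 186 CPM to 154, 147, 143 and 137 CPM, a fold of 0.789 (log2 -0.34 ± 0.033, FDR = 1.50e-11), with no overlap. PHGDH fell slightly, to 280.5, 283, 289 and 283 CPM, a fold of 0.945 (FDR = 0.00613). MTHFD2 (fold 1.37) and PYCR1 (fold 1.37) rose by similar amounts, and SHMT2 had a fold of 1.23. ASNS (log2 -0.11 ± 0.045, FDR = 0.0355) and PSPH (log2 0.04 ± 0.043, FDR = 0.384) did not pass.

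With the inhibitors present the R1881 values were as follows. With Senexin B at 24 h, R1881 raised 5 enzymes and lowered PHGDH (fold 0.919, FDR = 0.00317), where 26.3% of all genes rose and 21.2% fell. MTHFD2 was called (fold 1.54, FDR = 1.29e-15) among 18.9% of all genes, and the median log2 fold change was 0.12, against -0.011. With SNX631 at 72 h, R1881 raised 7 enzymes and lowered none, where 29.8% rose and 27.5% fell. MTHFD2 was called (fold 1.62, FDR = 3.30e-22) among 22% of all genes, and the median was 0.34, against -0.014. PSAT1 then rose with R1881, from 189, 196, 193 and 195 CPM to 226, 232, 231 and 213 CPM (fold 1.17, FDR = 3.84e-08), and PSPH rose by a fold of 1.40 (FDR = 8.35e-14). CHAC1 had a log2 fold change of 0.48 ± 0.18 and was not called (FDR = 0.0164). It was called without SNX631 replicate 1 (0.65) and without replicate 1 with both agents (0.64).

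**Figure D3:**
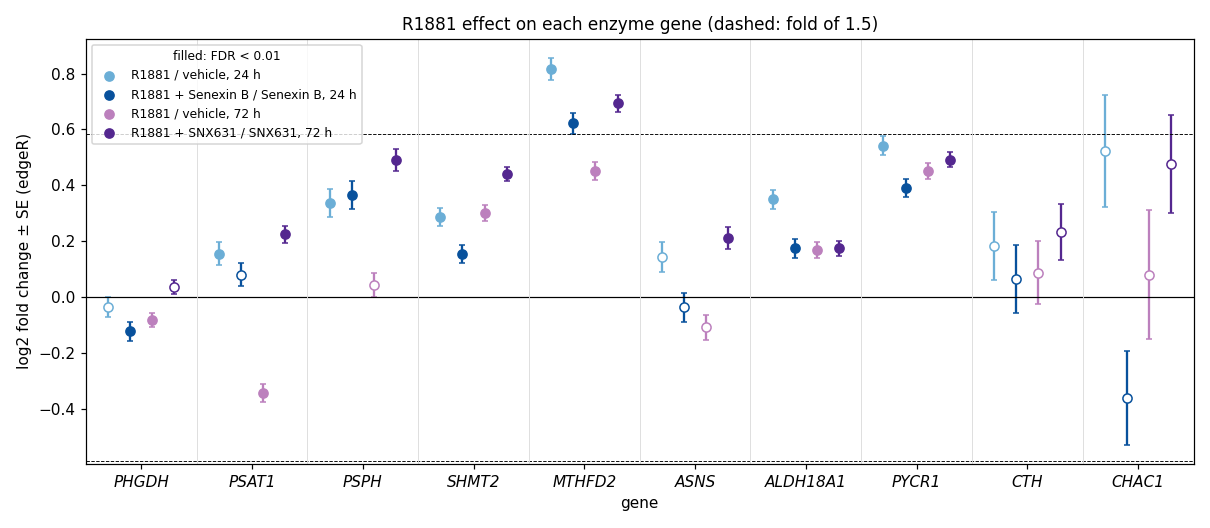
Log2 fold change (vertical axis; points, with bars of ± 1 SE from edgeR) of each enzyme gene with R1881 against the matching cells without it, in 4 comparisons shown by colour. Filled points have an FDR under 0.01 and dashed lines mark a fold of 1.5. MTHFD2, PYCR1, SHMT2 and ALDH18A1 rose in all 4 comparisons, and PSAT1 at 72 h stood at -0.34 without SNX631 and at 0.22 with it.

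The interaction term asked whether the inhibitor's log2 effect with R1881 differed from that without it. At 72 h it was positive and passed at an FDR under 0.01 for 4 enzymes, PSAT1, PSPH, ASNS and MTHFD2, and was negative and passed for none, where 2.99% of all genes had a positive and 4.1% a negative term that passed. No enzyme was called, with 1.19% of all genes called, and 6 had an unadjusted p under 0.05. PSAT1 had the largest term at 0.57 ± 0.045 (FDR = 4.82e-12): SNX631 changed it by 0.07 on the log2 scale without R1881 and by 0.64 with it. That term lay just under the fold limit, and PSAT1 was called when vehicle replicate 3, R1881 replicate 1 or replicate 4 with both agents was left out (0.59 to 0.60). PSPH had a term of 0.45 ± 0.058 (FDR = 4.71e-07), ASNS of 0.32 ± 0.060 (FDR = 1.86e-04) and MTHFD2 of 0.24 ± 0.044 (FDR = 1.35e-04). SHMT2 (0.14 ± 0.038, FDR = 0.0102) and PHGDH (0.12 ± 0.035, FDR = 0.0205) missed the limit. For the proline enzymes the term was 0.0058 ± 0.038 in ALDH18A1 (FDR = 0.956) and 0.041 ± 0.039 in PYCR1 (FDR = 0.586).

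At 24 h none of the 10 terms passed and none was called by edgeR or DESeq2, while 1.08% of all genes had a positive and 1.02% a negative term that passed and 0.577% were called. There 6 enzymes had an unadjusted p under 0.05. The median term was -0.14, against 0.0011 over all genes. The values nearest the limit were negative: ALDH18A1 at -0.17 ± 0.048 (FDR = 0.0316), MTHFD2 at -0.19 ± 0.055 (FDR = 0.0352) and CHAC1 at -0.88 ± 0.26 (FDR = 0.0456). Whether the terms of the 2 experiments differ was not tested.

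ATF4 itself was measured at the RNA level, although its protein is controlled mainly through translation. With Senexin B at 24 h ATF4 rose from 240.2, 247 and 244 CPM to 351, 345 and 339 CPM, a log2 fold change of 0.50 ± 0.038 (FDR = 4.75e-12). All treated libraries were above all controls. With R1881 alone at 24 h ATF4 was also above vehicle, at 289, 315 and 279 CPM. With R1881 and Senexin B it was higher still, at 367, 390 and 356 CPM. With SNX631 alone at 72 h ATF4 lay between 291 and 321 CPM, against 290.0 to 304 CPM in vehicle, and did not pass (log2 0.05 ± 0.028, FDR = 0.123). With R1881 present, ATF4 rose with SNX631 from 309, 297, 296 and 297 CPM to 361, 365, 364 and 344 CPM (log2 0.26 ± 0.027, FDR = 5.72e-10), and its interaction term was 0.20 ± 0.039 (FDR = 2.47e-04).

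The other stress-response genes of this pathway went different ways. DDIT3, which encodes the pro-apoptotic factor CHOP, measured 12.8, 12.3 and 11.7 CPM in vehicle and 4.78, 7.41 and 6.92 CPM with R1881 at 24 h. It was called lower with R1881 at 24 h (log2 -0.92 ± 0.12) and at 72 h (-0.80 ± 0.11), and rose with Senexin B alone (0.56 ± 0.090, FDR = 8.33e-06). ATF3, a stress-induced factor of the same family as ATF4, was called higher with R1881 at 24 h (0.87 ± 0.070). Its mean at 24 h was 14.8 CPM in vehicle, 20.4 CPM with Senexin B, 26.9 CPM with R1881 and 27.8 CPM with both. At 72 h its mean was 14.7 CPM in vehicle, 16.3 CPM with SNX631, 21.0 CPM with R1881 and 26.0 CPM with both. TRIB3, a pseudokinase that restrains ATF4, rose with Senexin B alone (0.37 ± 0.051), with both inhibitors under R1881 (0.23 ± 0.054 and 0.29 ± 0.047) and with R1881 at 24 h and 72 h (0.23 ± 0.053 and 0.29 ± 0.051). SESN2, a sensor that dampens mTORC1, fell with R1881 at 24 h and 72 h (-0.23 ± 0.059 and -0.31 ± 0.061) and passed in none of the 4 inhibitor comparisons (FDR 0.411 to 0.961).

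**Figure D4:**
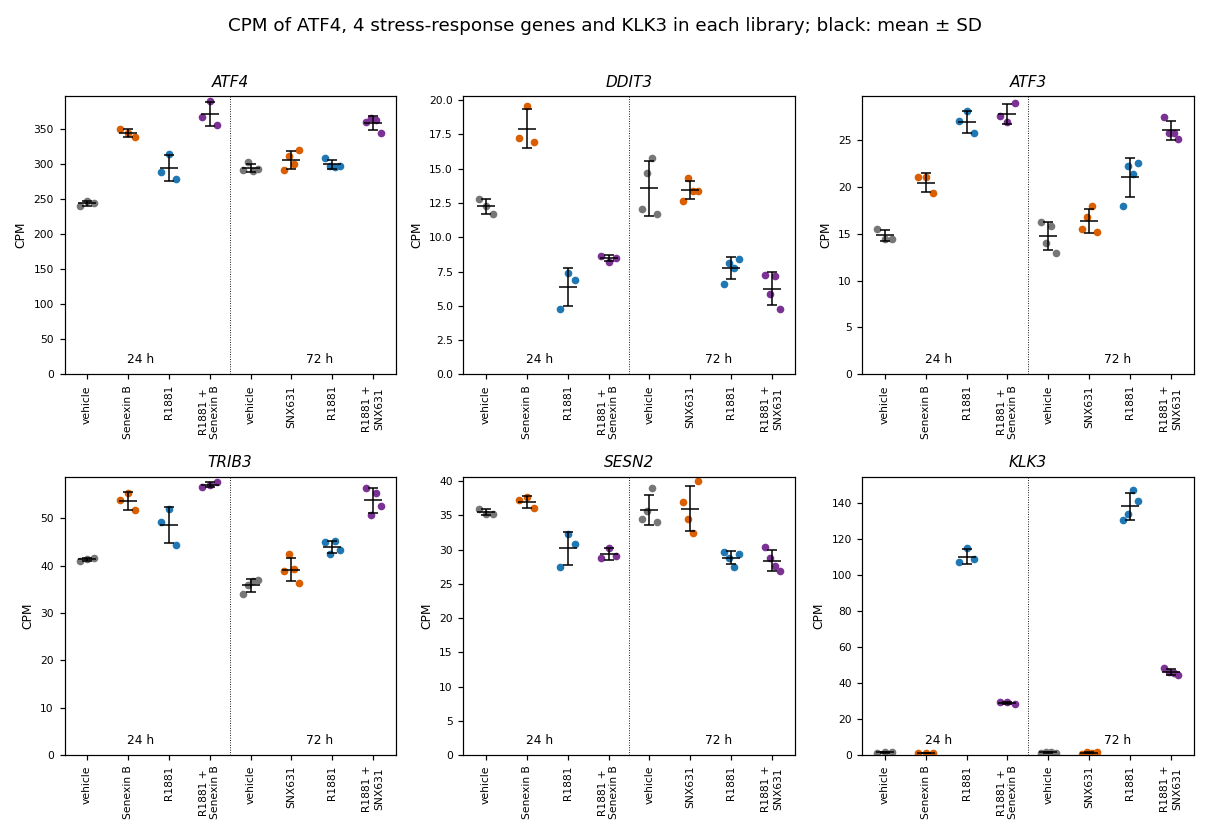
CPM (vertical axes, from 0) of ATF4, DDIT3, ATF3, TRIB3, SESN2 and the androgen-induced gene KLK3 in each of 28 libraries, laid out as in the plot of the 10 enzymes, with the mean ± SD in black. ATF4 is highest with R1881 plus either inhibitor, while DDIT3 is lowest in the groups with R1881.

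Other genes of the pathway are given as counts called, by lists chosen with earlier results of these data known. The share of all genes called, against which each count is read, was 3.79% with Senexin B alone, 3.12% with Senexin B under R1881, 4.77% with SNX631 alone, 4.12% with SNX631 under R1881, and 19% and 19.8% with R1881 at 24 h and 72 h. Of 19 tested ATF4 regulators and stress-response genes, Senexin B alone had 2 called higher (STC2, a secreted glycoprotein, at 0.97 ± 0.057, and GDF15, a stress cytokine, at 1.09 ± 0.077) and none lower. SNX631 alone had JDP2 called lower (-0.64 ± 0.092). With R1881 present, Senexin B had STC2 and GDF15 called higher (0.76 and 1.15) and SNX631 had STC2 (0.81). R1881 against vehicle had 4 called higher and 3 lower at 24 h, led by VLDLR (0.97) and GDF15 (-1.27), and 1 higher and 3 lower at 72 h, again VLDLR (1.34) and GDF15 (-0.94). The median of the list was 0.34 with Senexin B alone and 0.016 with SNX631 alone. GDF15 thus moved in opposite directions with Senexin B and with R1881, each passing its test.

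Of the 9 tested amino acid transporters that ATF4 is known to regulate, 7 were called higher with Senexin B alone. Those with the smallest FDR were SLC3A2, the shared heavy chain of several transporters (0.62 ± 0.042), SLC7A11, the cystine importer (0.70 ± 0.063), and SLC6A9, a glycine importer (1.01 ± 0.098). None was called with SNX631 alone, 1 (SLC1A5, a glutamine importer, 0.61) with Senexin B under R1881, and 3 (SLC1A5, SLC6A9 and SLC1A4) with SNX631 under R1881. SLC6A9 had a positive interaction term called at 72 h (0.75 ± 0.13, FDR = 4.16e-05). The terms called in the other lists went both ways. JDP2 had a positive term at 72 h (0.72 ± 0.13), and ASRGL1, an asparaginase, at 24 h (1.00 ± 0.22). GCLC, which starts glutathione synthesis, had a negative term at 24 h (-0.88 ± 0.071) and at 72 h (-0.74 ± 0.062). Of all genes, 0.577% were called at 24 h and 1.19% at 72 h. R1881 had 5 called higher and SLC7A5, the leucine transporter, lower (-1.25 ± 0.18) at 24 h, and 4 higher and SLC7A5 lower (-1.85 ± 0.14) at 72 h. The median was 0.70 with Senexin B alone, 0.17 with SNX631 alone, and 0.63 and 0.49 with R1881 at 24 h and 72 h.

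Of the 20 cytosolic aminoacyl-tRNA synthetases, which charge tRNAs with amino acids, only TARS1, the threonine enzyme, was called with an inhibitor. It was called higher in all 4 inhibitor comparisons, at 0.96 ± 0.030, 0.73 ± 0.030, 0.83 ± 0.023 and 0.81 ± 0.022 for Senexin B without and with R1881 and SNX631 without and with R1881. The list medians in those comparisons were 0.19, 0.17, 0.12 and 0.18. With R1881 against vehicle, FARSB was called higher at 24 h (0.61 ± 0.042) and none was called at 72 h. Of the 10 eIF2 kinases and their partners, none was called with an inhibitor. R1881 had EIF2S1, which encodes the alpha subunit of eIF2, and EIF2AK4, which encodes the amino acid sensor GCN2, called higher at 24 h (0.66 and 0.60) and none at 72 h.

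Among 18 tested further folate and glycine enzymes, MTHFD1L, the mitochondrial partner of MTHFD2, was called higher with Senexin B without and with R1881 (0.96 ± 0.073 and 0.69 ± 0.068) and with SNX631 under R1881 (0.67 ± 0.065). SNX631 alone had TYMS, thymidylate synthase (1.03 ± 0.056), and GGH (0.97 ± 0.065) called higher. R1881 had 4 called higher at 24 h and 3 higher and 1 lower at 72 h, with TYMS at 2.53 and 1.66 and SHMT1, the cytosolic counterpart of SHMT2, at 0.99 and 0.83.

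Of 18 tested further enzymes of serine, aspartate, asparagine, glutamate and proline metabolism, the inhibitors had 1 called, ASRGL1, an asparaginase, lower with Senexin B alone (-0.64 ± 0.19). R1881 had 6 called higher and 1 lower at 24 h and 7 higher and 1 lower at 72 h, where 19% and 19.8% of all genes were called. ASRGL1 had the largest rise of the list (1.97 and 2.74), and ALDH4A1, which breaks down the proline intermediate (1.68 and 1.67), and GLUD1, glutamate dehydrogenase (0.92 and 1.05), were called higher too, with GLS2, a glutaminase, lower (-0.97 and -0.93). Of 16 tested methionine, transsulfuration and glutathione enzymes, GCLC, which starts glutathione synthesis, and CHAC2, the relative of CHAC1, were called higher with Senexin B alone (0.87 and 0.63) and SNX631 alone (0.68 and 0.73), GGT1 was called lower with Senexin B without and with R1881 (-0.67 and -0.65), and CHAC2 was called higher with SNX631 under R1881 (0.65). R1881 had GNMT, a glycine methyltransferase, called higher at both times (3.47 and 3.43), with GGCT (1.06 and 0.80), and GCLC called lower at 24 h (-1.24).

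How alike the 10 enzymes were over the 28 libraries was described by the correlation of log2 CPM, centred within each experiment, where points share library, depth and treatment group. PYCR1 and MTHFD2 were most alike (Pearson r = 0.982), followed by MTHFD2 and ALDH18A1 (0.959) and SHMT2 and PYCR1 (0.955). PSPH and MTHFD2 had an r of 0.915. ASNS, PSAT1 and PHGDH had r of 0.825 to 0.906 among them, and ASNS and CHAC1 lay in that range too (0.839). PHGDH and PSPH, the ends of the same pathway, were least alike (0.414). For each of the 10 enzymes the most correlated gene tested in both experiments lay outside the set. Its r was 0.989 for MTHFD2, 0.986 for PYCR1, 0.976 for ALDH18A1 and 0.969 for SHMT2, so such values are not particular to these enzymes. Among 14893 genes tested in both experiments with a mean of at least 1 CPM, and leaving out the 10 enzymes, those nearest to ASNS were the overlapping entry ENSG00000284707 (0.996), TRAP1 (0.905), IPO7 (0.900), SLC20A1 (0.899) and TARS1 (0.894).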

How the data were processed

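RNA-seq of 28 LNCaP libraries was analysed from the deposited table of expected counts per gene, in which 16.9% of values above 0 had a fraction; the authors' processing notes name FastQC, cutadapt 2.8, STAR 2.7.2b and featureCounts of Subread 2.0.3, with builds GRCh38.p13 and GRCm39. The annotation, strand setting and rule for sharing reads are not given in the sources used here. The 2 added non-human entries held 0 counts, and 0 columns were left unused. The dose of Senexin B is that of the sample labels; the published text gives another.

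Counts were rounded to whole numbers. Each experiment was fitted on its 4 groups with edgeR 4.0.16 (R 4.3.3; TMM scaling, minimum count 10, minimum total 15, quasi-likelihood F test), with Benjamini-Hochberg FDR over all genes tested, 15948 at 24 h and 16074 at 72 h. A gene rose or fell at an FDR under 0.01 and was called where its fold also passed 1.5. SE are Wald errors of the fit. CPM use TMM-scaled totals within each experiment. The labels describe biological replicates; the common biological coefficient of variation was 2.72% and 2.38%, so small folds passed the test. Every pair of replicates differed beyond sampling noise. Scripts were tested on simulated counts. Same-numbered libraries did not deviate together (r from -0.0145 to 0.0666 at 24 h and -0.0677 to 0.0730 at 72 h), so no pairing was used.

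Genes named beside the 10 enzymes were, from each of 7 lists, up to 3 per direction with the smallest FDR among those called in the R1881 and inhibitor comparisons; ATF4, DDIT3, ATF3, TRIB3 and SESN2; the 5 genes most correlated with ASNS; and KLK3. The enzymes, lists and tests were chosen with earlier results of these data known. Positions and transcript lengths are from GENCODE (GRCh38) and promoter windows from RefSeq (GRCh38.p14). Alternatives were DESeq2 1.42.0, other scalings, filters, fits and thresholds, a replicate block, each library left out, and, chosen after seeing the data, ASNS counted together with its overlapping entry. Some genes that meet these rules are not reported here.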

Additional observations from a re-analysis of the deposited data

Results flagged for a closer look

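In groups of 4 libraries, 40 sets of values were examined for 1 library far from the rest by Dixon's criterion, which chance meets in about 1 of 20 groups, and 2 stood out. MTHFD2 in the 72 h cells given R1881 and SNX631 was highest in replicate 1, at 248 CPM against 234 to 236 CPM in the others. CHAC1 in 72 h vehicle was lowest in replicate 1, at 1.83 CPM against 2.81 to 2.92 CPM in the others. Leaving out that vehicle library turned the sign of CHAC1 for R1881 against vehicle at 72 h, to -0.049 on the log2 scale.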

How the results depend on the processing

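The counts of called enzymes were the same under DESeq2's Wald test, DESeq2's size factors, both other filters, a fit of all 28 libraries and a fit of only the groups compared. Same-numbered libraries showed no detectable pairing, a library correlating best with its own number in 8 of 18 comparisons at 24 h and 2 of 24 at 72 h. A replicate block also left every count the same (1, 0, 1, 1, 2, 0, 0, 3, 0 and 0 for R1881 at 24 h and 72 h, R1881 with Senexin B and with SNX631, Senexin B, SNX631, Senexin B and SNX631 under R1881, and the interactions at 24 h and 72 h). Without the fold limit the counts in that order were 6, 6, 6, 7, 8, 6, 7, 10, 0 and 4 at an FDR under 0.01 and 8, 7, 6, 9, 9, 7, 8, 10, 3 and 6 at an FDR under 0.05. Tested against a fold of 1.5 itself, the count fell to 0 for R1881 with Senexin B, 1 (CHAC1) for Senexin B alone and 0 for SNX631 under R1881, by construction a stricter test. Scaling by library totals alone moved the median of all genes to between -0.122 and -0.0854 in the R1881 comparisons. The enzyme medians then became 0.23 for R1881 at 24 h, -0.018 at 72 h (reversed), 0.042 with Senexin B (with 0 called) and 0.23 with SNX631, and the sign turned for PSPH (-0.058), CHAC1 (-0.021) and CTH (-0.014) with R1881 at 72 h, CTH with R1881 and Senexin B (-0.0092) and PHGDH with R1881 and SNX631 (-0.071), none of which had passed. MTHFD2 was then not called for SNX631 under R1881 (0.57). With each library left out the count ranged from 0 to 1 for the interaction at 72 h and from 1 to 2 for R1881 with SNX631. It ranged from 2 to 3 for SNX631 under R1881. Signs turned, never in an enzyme that had passed, for PSPH in the 24 h interaction (-0.014 to 0.079), PHGDH with R1881 at 24 h (-0.051 to 0.0085), ASNS with R1881 and Senexin B (-0.062 to 0.012), CHAC1 (-0.049 to 0.18) and CTH (-0.0078 to 0.15) with R1881 at 72 h, PSPH with SNX631 (-0.032 to 0.0059) and ALDH18A1 in the 72 h interaction (-0.0058 to 0.030). Depth limits CHAC1 most. The deeper vehicle replicate 3 at 24 h changed no count when left out.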
